A study of Mus musculus with 12 samples.

Results

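Spp1, the gene of osteopontin, and 9 other genes, most of them of bone and cartilage, were read in the aortas of 4 groups of mice by single-cell RNA sequencing. The 9 others were Tnfrsf11b, Ltbp2, Sox9, Acan, Comp, Chad, Ibsp, Runx2 and Alpl, and the 10 are among 32285 genes listed in each matrix. They were chosen by their measured levels and by their differences between these libraries, so their levels are given as a description and no test is attached to them. Each was read in fibroblasts, smooth muscle cells and macrophages, which were gated by marker genes in each of the 4 libraries.

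All mice were male ApoE-/- animals by the account of the study, a strain that lacks apolipoprotein E and develops plaques in the aorta on fatty food. They were 8 weeks old at the start and were kept for 24 weeks in groups of 18. The Healthy group ate a normal diet and was given saline. The AS group, the atherosclerosis model, ate food with 1% cholesterol and 10% fat and was given saline. The MTZ-treated group ate the same food and was given methazolamide, an inhibitor of carbonic anhydrases, at 25 mg/kg for the last 12 weeks. The MTZ-preventive group ate that food and was given the same dose for all 24 weeks. The sample labels write methoxazolamide where the study writes methazolamide. For sequencing, 6 aortas of a group were pooled into 1 gene expression library, so the spread between mice of a group is not measured and no group was tested against another.

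Arteries calcify when cells of their wall take on programmes of bone and cartilage cells. Osteopontin is a secreted phosphoprotein of bone that binds mineral and is recognised by integrins and CD44, and macrophages and modulated smooth muscle cells are known to make it in plaques. Runx2 and Sox9 are the transcription factors that set the bone and the cartilage programme, Acan, Comp and Chad encode cartilage matrix proteins, and Ibsp and Alpl encode a mineral-binding sialoprotein and a phosphatase that act in mineralisation. Tnfrsf11b encodes osteoprotegerin, a decoy receptor that blocks the osteoclast factor RANKL, and Ltbp2 encodes a protein of elastic microfibrils.

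After limits on genes, unique molecular identifiers (UMIs, 1 per captured RNA molecule), mitochondrial and red blood cell RNA, and removal of doublets, 2160 to 14186 cells per library remained, with 3811764 to 35591564 UMIs. The AS library was the shallowest, and 3 UMIs, the limit that a count of 0 allows, are 0.787 CPM there against 0.0843 to 0.191 CPM in the others. CPM is the UMIs of a gene per 1000000 UMIs of the same cells. Apoe, the gene disrupted in these mice, was at 678 CPM in the library labelled Healthy and at 11.5, 12.8 and 8.96 CPM in AS, MTZ-treated and MTZ-preventive, which goes against the genotype given for the first library. It is therefore called the library labelled Healthy, and every comparison with it also compares libraries that differ in Apoe RNA. Between 23 and 235 cell barcodes were shared by each pair of libraries. Values in parentheses are 95% limits that cover counting error only. They are exact Poisson limits for a level, Clopper-Pearson limits for a share, and limits from the exact conditional binomial for a ratio.

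Fibroblasts numbered 2183, 401, 2175 and 3841 in the library labelled Healthy, AS, MTZ-treated and MTZ-preventive, the order used throughout. Smooth muscle cells numbered 1574, 374, 2126 and 3058 cells, and macrophages 70, 128, 175 and 116 cells. A cell entered a class with at least 3 of its 10 markers and more than of any other class. At the limit of that gate lay 1649 of 8600 fibroblasts (19.2%), 1712 of 7132 smooth muscle cells and 141 of 489 macrophages (28.8%). In AS smooth muscle cells these were 164 of 374 (43.9%), against 19.2% to 25.6% in the other libraries. Markers of other classes were detected within the gates. In AS macrophages the 10 fibroblast markers summed to 3165 CPM, with all 10 detected, against 209 to 709 CPM in the other libraries. Adipocyte markers were at 1827 CPM there against 25.2 to 144 CPM. The endothelial markers of AS macrophages were at 834 CPM against 78.0 to 179 CPM, and their neutrophil markers at 826 CPM against 45.1 to 241 CPM. In AS smooth muscle cells the macrophage markers summed to 878 CPM, again all 10 detected, against 97.3 to 155 CPM, and the adipocyte markers to 6996 CPM against 111 to 2942 CPM. Neutrophil markers reached 4373 CPM there against 15.2 to 87.9 CPM, while the smooth muscle markers themselves were at 23508 CPM against 44354 to 50889 CPM. In AS fibroblasts the neutrophil markers summed to 2094 CPM, with all 10 detected, against 53.8 to 135 CPM. Their macrophage markers were at 297 CPM (9 of 10 detected) against 54.4 to 164 CPM, and their adipocyte markers at 2164 CPM (9 of 10) against 224 to 1415 CPM. The fibroblast markers of AS fibroblasts were at 19689 CPM against 20456 to 40414 CPM. The part of these markers in the levels below was not tested except where cells with few markers of another of the 3 classes are given. That limit did not cover adipocyte, endothelial or neutrophil markers.

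Spp1 (ENSMUSG00000029304) lies on mouse chromosome 5, at bases 104435111 to 104441053 of GRCm38.p6. Ibsp (ENSMUSG00000029306) lies on the same chromosome at 104299287 to 104311472, and its end is 123639 bases before the start of Spp1. Both belong to a row of genes for secreted phosphoproteins of bone and tooth, in the order Dspp, Dmp1, Ibsp, Mepe and Spp1. RefSeq promoters of GRCm38.p6, 250 bases before to 50 bases after a start, were found for 7 of the 10 genes, as 9 promoters. The 250 bases before the start are shown for 4 genes whose fibroblast level differed between libraries. They are Spp1 (chr5:104434861-104435110, plus strand), its neighbour Ibsp (chr5:104299037-104299286, plus strand), Ltbp2 (chr12:84876492-84876741, minus strand) and Acan (chr7:79052976-79053225, plus strand). Capitals mark matches, on either strand, to the RUNX core TGTGGT, the SOX cores ACAAAG and AACAAT, and the TATA box TATAAA, and no match overlaps another.
Spp1: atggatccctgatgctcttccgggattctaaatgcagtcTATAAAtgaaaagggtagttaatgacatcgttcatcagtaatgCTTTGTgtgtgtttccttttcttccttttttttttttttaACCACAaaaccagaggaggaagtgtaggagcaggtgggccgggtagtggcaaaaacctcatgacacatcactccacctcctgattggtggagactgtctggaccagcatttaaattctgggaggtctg
Ibsp: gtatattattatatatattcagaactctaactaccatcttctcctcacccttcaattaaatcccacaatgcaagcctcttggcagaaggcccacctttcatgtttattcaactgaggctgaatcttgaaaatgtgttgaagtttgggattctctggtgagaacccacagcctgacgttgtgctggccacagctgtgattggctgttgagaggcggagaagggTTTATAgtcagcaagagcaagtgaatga
Ltbp2: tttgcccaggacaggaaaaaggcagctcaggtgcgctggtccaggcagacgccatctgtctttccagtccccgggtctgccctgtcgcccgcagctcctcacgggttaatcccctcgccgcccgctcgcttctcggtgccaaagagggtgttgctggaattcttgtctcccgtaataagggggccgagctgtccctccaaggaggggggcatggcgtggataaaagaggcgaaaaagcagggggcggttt
Acan: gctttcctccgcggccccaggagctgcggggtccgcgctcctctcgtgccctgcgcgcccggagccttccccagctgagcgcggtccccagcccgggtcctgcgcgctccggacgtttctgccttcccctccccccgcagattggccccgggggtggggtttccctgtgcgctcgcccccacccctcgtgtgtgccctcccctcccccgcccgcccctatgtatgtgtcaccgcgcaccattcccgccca

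The Spp1 promoter shown, the first of 2, held a RUNX core that begins 128 bases before the start. It also held a SOX core (ACAAAG) at 168 bases and TATAAA at 211 bases, the RUNX and SOX cores as reverse complements. The second Spp1 promoter held ACAAAG in reverse 243 bases before its start. The Ibsp promoter held TATAAA in reverse 28 bases before the start and AACAAT 19 bases into the transcript. Ltbp2 and Acan had none of these letters in the window. TGTGGT occurs in 16.8% of all 32851 RefSeq promoters of this length, ACAAAG or AACAAT in 27% and TATAAA in 13.6%, so a match is a description of the letters and not a site. The GC content was 45.3% for the Spp1 promoter shown, 36.7% for its second and 46.3% for Ibsp. It was 61% for Ltbp2 and 74% for Acan, with a median of 52.7% over all promoters. Among the others, Runx2 held 3 RUNX cores and Chad 1 TATAAA 28 bases before its start. Alpl held 3 SOX cores over its 2 promoters, and TATAAA in reverse 192 bases before the start of the first.

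Spp1 was highest in AS and lowest in the library labelled Healthy in each of the 3 classes, and both MTZ libraries lay between. In fibroblasts it was at 3.50 (2.11 to 5.47), 6026 (5861 to 6194), 1191 (1162 to 1220) and 128 (121 to 135) CPM. Smooth muscle cells had 1.40 (0.561 to 2.88), 509 (454 to 568), 124 (114 to 135) and 16.6 (13.7 to 19.8) CPM. In macrophages it was at 20.5 (6.66 to 47.9), 14869 (14402 to 15347), 3540 (3380 to 3707) and 2465 (2334 to 2601) CPM. The limits of no 2 libraries overlapped within a class. In AS and MTZ-treated the order of the classes was macrophages, fibroblasts and smooth muscle cells, with limits that did not overlap. The same order held in MTZ-preventive. In the library labelled Healthy, where the 3 classes held 19, 7 and 5 Spp1 UMIs, the limits of fibroblasts and smooth muscle cells overlapped.

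**Figure D1:**
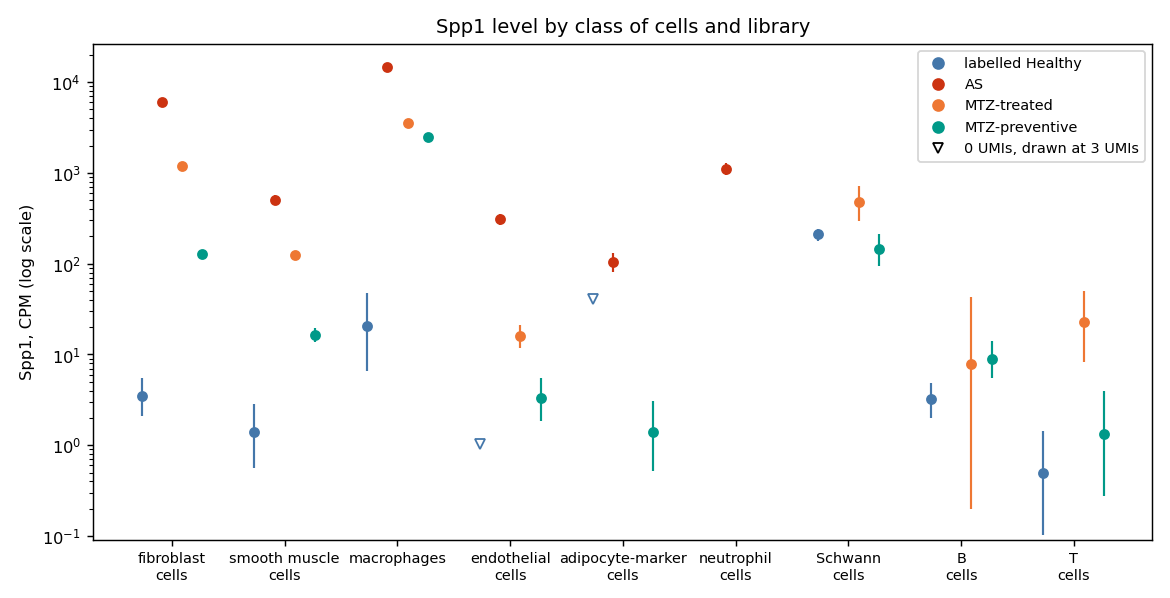
Spp1 level in CPM on a log axis by class of cells, with 1 point per library and bars for the exact 95% Poisson limits. AS is the highest library in fibroblasts (6026 CPM), smooth muscle cells (509 CPM) and macrophages (14869 CPM).

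Over the library labelled Healthy, AS was higher by 1720 (1100 to 2859) times in fibroblasts, 364 (175 to 914) times in smooth muscle cells and 725 (310 to 2233) times in macrophages. MTZ-treated was at 0.198 (0.190 to 0.205) of AS in fibroblasts, 0.244 (0.212 to 0.281) in smooth muscle cells and 0.238 (0.225 to 0.252) in macrophages. MTZ-preventive was at 0.0212 (0.0200 to 0.0225), 0.0325 (0.0261 to 0.0403) and 0.166 (0.156 to 0.177) of AS. The ratio of MTZ-preventive to AS in macrophages thus had limits above those in the other 2 classes, on counts of 1 library each. Over all alternatives of gate, filter and scaling tried, the log2 ratio kept its sign in each class and comparison. For MTZ-treated over AS in macrophages it was -0.97 in place of -2.07 under looser limits on cells, with an interval no longer wholly past 2-fold.

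The share of cells with a UMI was read beside the level, because a few cells can hold most UMIs of a gene. In fibroblasts 10, 114, 105 and 103 cells had an Spp1 UMI, or 0.458%, 28.4%, 4.83% and 2.68%. With each cell thinned to 1000 UMIs, the shares were 0.229%, 23.9% (19.8 to 28.4), 3.54% and 2.29%. The AS share was thus the highest although AS fibroblasts were the shallowest, with a median of 1299 UMIs against 1486 to 1652. The thinned smooth muscle shares were 0.381%, 22.7% (18.6 to 27.3), 2.49% and 1.47%. In macrophages they were 0%, 82.8% (75.1 to 88.9), 39.4% (32.1 to 47.1) and 11.2% (6.10 to 18.4). Unthinned, 4, 109, 83 and 29 macrophages had a UMI, at median depths of 2898.5, 1470.5, 1895 and 4434 UMIs.

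Free RNA in the droplets can give a UMI to a cell that does not make the transcript. In the AS library none of 26 B and T cells had an Spp1 UMI at a median depth of 1736 UMIs, which allows a share of up to 13.2%. Of 370 AS endothelial cells, at a median of 1427.5 UMIs, 16.8% had one, and 14.9% (11.4 to 18.9) after thinning. Of 359 AS cells with adipocyte markers 10.0% (7.12 to 13.6) had one after thinning. The thinned share of AS fibroblasts lay above the limits of both, and that of AS smooth muscle cells overlapped the limits of endothelial cells. Most AS fibroblasts and smooth muscle cells with Spp1 had a low count, with a median of 1 UMI per 1000 among those with any. Endothelial cells of MTZ-treated had one in 2.20% of 1184 cells, at a median of 1745 UMIs, and those of MTZ-preventive in 0.827% of 1572 cells, at a median of 2147 UMIs. After thinning these were 1.01% (0.525 to 1.76) and 0.573% (0.262 to 1.08), against 2.49% (1.87 to 3.25) and 1.47% (1.08 to 1.96) of smooth muscle cells. Unthinned, the smooth muscle shares were 3.53% and 1.96%. The endothelial levels of Spp1, 0, 307, 15.9 and 3.33 CPM, stood in the same order of libraries as the smooth muscle levels. The part of free RNA in those levels was not tested. B and T cells had an Spp1 UMI in 0.234% of 5126 cells in the library labelled Healthy, 1.38% of 217 cells in MTZ-treated and 0.443% of 2032 cells in MTZ-preventive. The thinned smooth muscle and fibroblast shares of the library labelled Healthy, 0.381% and 0.229%, had limits that include its share of B and T cells. That share was not thinned, at a median of 2204 UMIs, and unthinned the other shares were 0.445% and 0.458%. They may be background, which was not tested.

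A few cells held most of the Spp1 in fibroblasts and a large part of it in macrophages. In AS fibroblasts 1 cell held 3104 of the 5068 Spp1 UMIs, or 61.2%. The 2 cells behind it held 1003 and 174 UMIs, and the 3 together made up 84.5% of the Spp1 of the class. The first had 18866 UMIs in all, 14.5 times the median of its class, with 5 fibroblast markers and no marker of smooth muscle cells or macrophages. In MTZ-treated fibroblasts the 3 highest cells held 1505, 1208 and 1171 UMIs, 58.9% of the class, and in MTZ-preventive 275, 266 and 158 UMIs, 51.8%. In macrophages the 3 highest cells held 50.2% of the AS, 48.0% of the MTZ-treated and 84.0% of the MTZ-preventive Spp1.

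**Figure D2:**
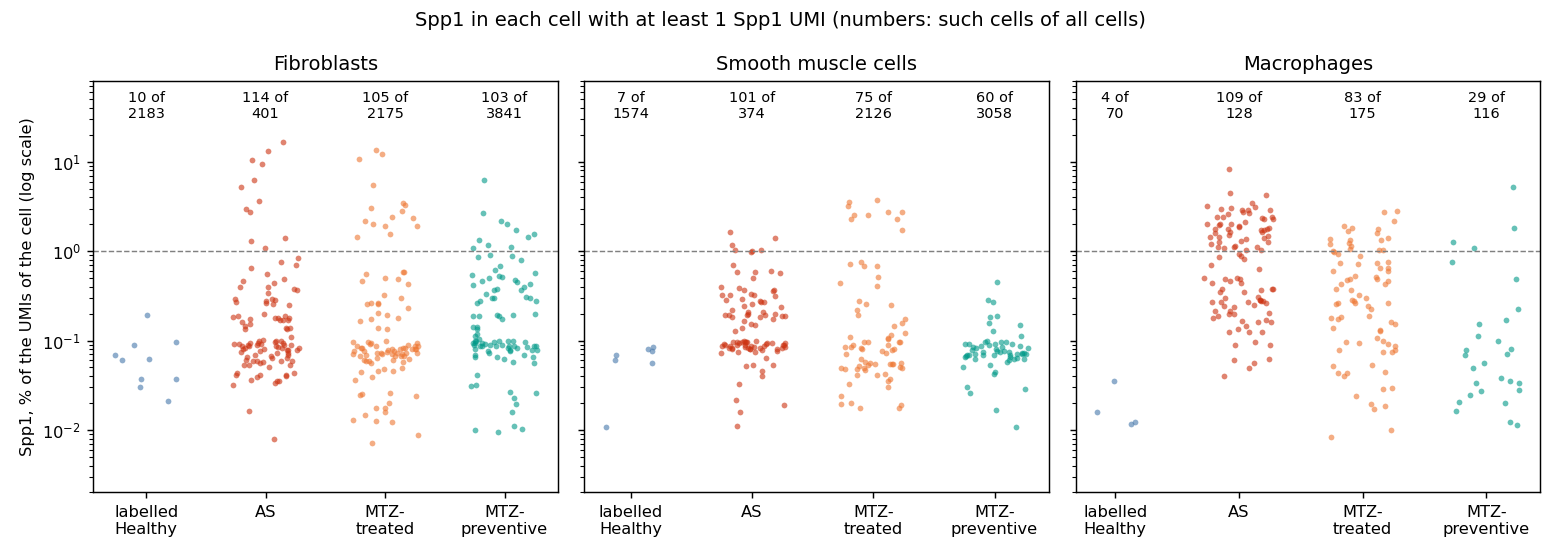
Spp1 UMIs as a percentage of all UMIs of the cell, on a log axis, by class and library. Each cell with at least 1 Spp1 UMI is 1 point, and the number of such cells over all cells is printed above. A dashed line marks 1%. Most points of AS fibroblasts lie below that line, and the cell with 3104 Spp1 UMIs lies at 16.5%, while 109 of 128 AS macrophages have a point.

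Without these cells AS remained the highest library and the library labelled Healthy the lowest in fibroblasts and macrophages. Without the cell with the most Spp1 in each library, fibroblasts were at 2.21, 2389, 921 and 102 CPM while macrophages of AS, MTZ-treated and MTZ-preventive were at 10546, 2941 and 1315 CPM. Without cells of over 5 times the median UMIs of their class, AS fibroblasts were at 1216 CPM, MTZ-treated at 214 CPM and MTZ-preventive at 125 CPM. Macrophages were then at 9947 CPM in AS, 2238 CPM in MTZ-treated and 2465 CPM in MTZ-preventive, so that the MTZ libraries changed places. With cells limited to at most 1 marker of another of the 3 classes, fibroblasts were at 1.83, 9405, 335 and 45.7 CPM, smooth muscle cells at 0.758, 159, 7.52 and 4.12 CPM and macrophages at 23.7, 24213, 2968 and 2529 CPM. The AS smooth muscle level thus fell from 509 to 159 CPM in cells with fewer markers of other classes. The part of macrophage RNA in the smooth muscle level was not tested further.

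Cells with at least 10 Spp1 UMIs per 1000 were then set apart. They were 0, 11, 16 and 10 fibroblasts, or 2.74% (1.38 to 4.86), 0.736% (0.421 to 1.19) and 0.260% (0.125 to 0.478) in the 3 libraries that had any. They held 92.7% of the Spp1 of AS fibroblasts, 96.2% in MTZ-treated and 67.0% in MTZ-preventive. The fibroblasts below that value were at 3.50, 462, 46.8 and 42.4 CPM, so that AS was again the highest library. Near the dividing value, 4, 1 and 5 fibroblasts of AS, MTZ-treated and MTZ-preventive had 7 to 9 Spp1 UMIs per 1000, and 1, 1 and 2 had 10 to 12. Of macrophages 49 of 128 in AS (38.3%), 19 of 175 in MTZ-treated (10.9%) and 3 of 116 in MTZ-preventive (2.59%) reached it. Just below it, at 7 to 9, were 6, 7 and 3 macrophages of these libraries, and 8, 7 and 1 lay at 10 to 12. The value was reached by 0, 6, 10 and 0 smooth muscle cells.

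The Spp1-high fibroblasts differed from fibroblasts with no Spp1 in the same library in several of the other genes, given here as a description of few cells. In AS they had a median of 4 fibroblast markers and 1 macrophage marker, against 6 and 0 in those with none. In MTZ-treated they had 6 fibroblast and 3 smooth muscle markers against 7 and 2. Their median depths were 1111 against 1317 UMIs in AS, 7499 against 1605 in MTZ-treated and 1364 against 1664 in MTZ-preventive. The part of depth and of markers of other classes was not tested. Tnfrsf11b was at 816 (554 to 1158) CPM in the 11 AS cells against 26.8 CPM in the 305 AS cells with none, at 522 against 18.6 CPM in MTZ-treated and at 612 against 13.3 CPM in MTZ-preventive. Ltbp2 was at 605 against 316 CPM, 713 against 78.2 CPM and 554 against 76.4 CPM. In AS, however, 21 of the 23 Ltbp2 UMIs lay in 1 cell, and without it the Spp1-high cells were at 105 CPM, below those with none. In MTZ-preventive 1 cell held 14 of 19, and the others were at 188 CPM. Acan was at 289 (144 to 518) against 5.96 CPM in AS and at 368 against 7.97 CPM in MTZ-treated, with no UMI in the 10 MTZ-preventive cells. The AS values of Tnfrsf11b, Ltbp2 and Acan rest on 4, 3 and 2 of the 11 cells. Without the cell with the most UMIs of the gene they were 313 CPM for Tnfrsf11b and 28.4 CPM for Acan. Comp went the other way, at 0 UMIs against 264 CPM in AS, 22.1 against 221 CPM in MTZ-treated and 0 UMIs against 168 CPM in MTZ-preventive. Sox9 was at 105 against 32.8 CPM, 250 against 44.2 CPM and 58.3 against 53.4 CPM. The AS and MTZ-preventive values of Sox9 in the Spp1-high cells rest on few UMIs, and no direction is drawn from them.

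Outside the 10 genes, Col2a1, the main collagen of cartilage, was at 2421 against 19.4 CPM in AS, 985 against 6.08 CPM in MTZ-treated and 525 against 1.45 CPM in MTZ-preventive. It lay in 3 of the 11 AS cells. Dcn, a fibroblast proteoglycan, was at 6499 CPM in the Spp1-high AS cells and 6051 CPM in those with none, and Clec3b, a marker of adventitial fibroblasts, at 52.6 against 1873 CPM. Both Dcn and Clec3b are among the markers by which the fibroblasts were gated. The macrophage genes Lyz2 and C1qb, markers of the gate as well, were at 289 and 78.9 CPM in the Spp1-high AS cells and at 343 and 228 CPM in the 85 AS cells with 1 to 9 Spp1 UMIs per 1000, against 46.2 and 13.4 CPM in those with none. Their part in the result was not tested.

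**Figure D3:**
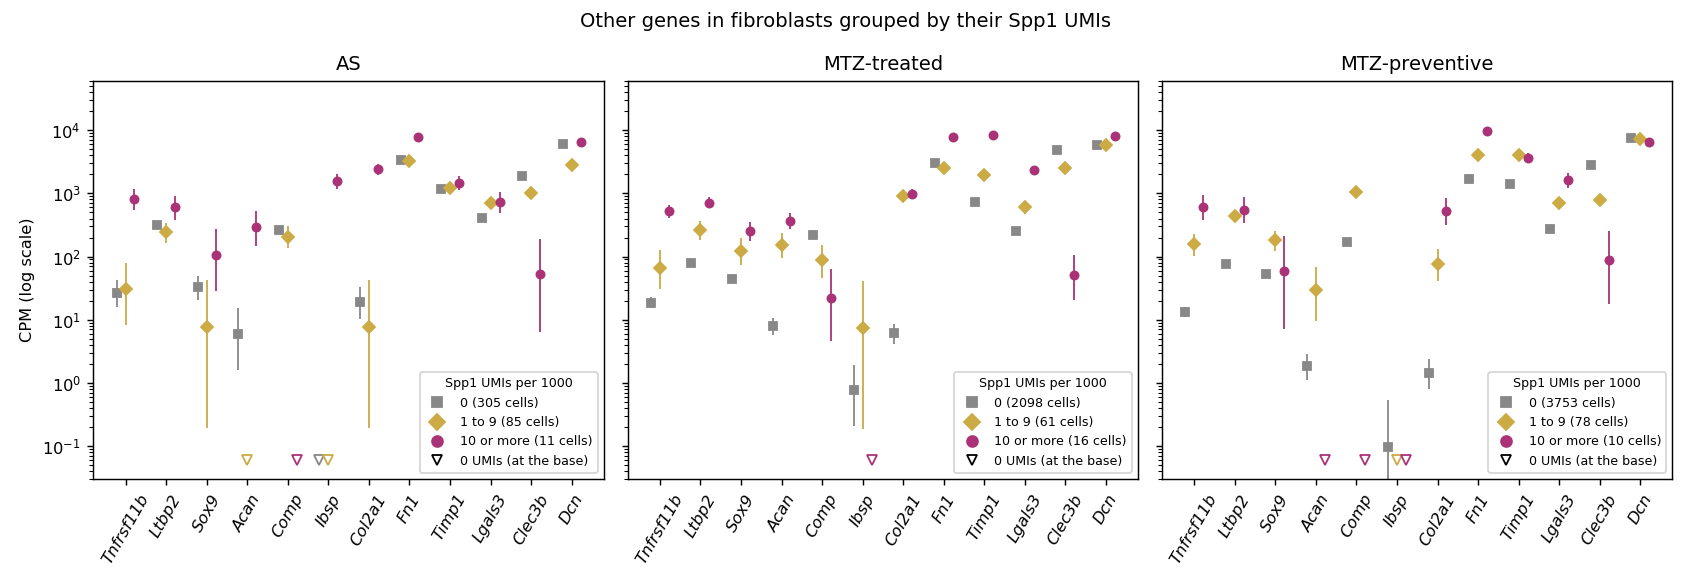
Level of other genes in CPM on a log axis in fibroblasts with 0, 1 to 9 and 10 or more Spp1 UMIs per 1000, in AS, MTZ-treated and MTZ-preventive, with exact 95% Poisson limits. Tnfrsf11b and Col2a1 are higher in the Spp1-high cells of all 3 libraries (AS: 816 against 26.8 CPM and 2421 against 19.4 CPM), and Comp is lower.

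Genes detected in the same cell were counted as well. In AS fibroblasts 11 of the 20 cells with a Tnfrsf11b UMI had Spp1, or 55%, where 114 of all 401 cells had it. For Ltbp2 these were 24 of 107 cells (22.4%), a share below that of all AS fibroblasts. In MTZ-treated, where 105 of 2175 fibroblasts had Spp1, it was found in 18 of 31 cells with Acan (58.1%), 20 of 78 cells with Tnfrsf11b (25.6%) and 19 of 393 cells with Comp. Deeper cells show more of any gene, and depth was not matched in these counts. Fibroblasts with at least 2 of the 9 genes other than Spp1 were 3.99%, 13.5%, 6.67% and 6.95% of the class.

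Tnfrsf11b (ENSMUSG00000063727, chromosome 15, 54250619 to 54278484) was at 26.6, 63.0, 32.1 and 17.6 CPM in fibroblasts. AS was the highest, at 2.37 (1.70 to 3.27) times the library labelled Healthy, and MTZ-treated and MTZ-preventive were at 0.510 (0.373 to 0.707) and 0.280 (0.205 to 0.387) of AS. Of the 53 AS UMIs 20 lay in 1 cell, and without it the AS level was 39.4 CPM. The 4 smooth muscle levels were 14.2, 14.6, 18.4 and 14.5 CPM, with overlapping limits, and macrophages had no UMI in any library.

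Ltbp2 (ENSMUSG00000002020, chromosome 12, 84783212 to 84876558) was spread over more cells. In fibroblasts it was at 72.7, 317, 98.4 and 83.9 CPM, with a UMI in 8.47%, 26.7%, 9.61% and 8.36% of the cells. AS was at 4.37 (3.73 to 5.12) times the library labelled Healthy, MTZ-treated at 0.310 (0.267 to 0.360) of AS and MTZ-preventive at 0.264 (0.230 to 0.304). No AS cell held more than 21 of the 267 UMIs, and the AS level was 299 CPM without that cell. Smooth muscle Ltbp2 was at 12.6, 35.6, 18.4 and 19.7 CPM, with AS at 2.84 (1.66 to 4.67) times the library labelled Healthy. On the log2 scale that ratio was 0.11 under the stricter gate.

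Of the transcription factors, Sox9 (ENSMUSG00000000567, chromosome 11, 112782210 to 112787757) was at 43.5, 32.1, 51.3 and 55.5 CPM in fibroblasts. Here AS was the lowest library, at 0.738 (0.476 to 1.10) of the library labelled Healthy, limits that include 1, while both MTZ libraries were above AS, at 1.60 (1.07 to 2.47) and 1.73 (1.18 to 2.65) times. Smooth muscle Sox9 was at 4.39, 9.72, 8.65 and 16.8 CPM, the AS value resting on 6 UMIs. Runx2 (ENSMUSG00000039153, chromosome 17, 44495987 to 44814797) was near the limit of detection, with 9, 3, 9 and 28 UMIs in fibroblasts, 5, 1, 4 and 12 UMIs in smooth muscle cells and 2, 0, 4 and 7 UMIs in macrophages. No difference of Runx2 was detectable at this depth.

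The cartilage matrix genes differed among themselves. Acan (ENSMUSG00000030607, chromosome 7, 79053226 to 79115099), the large proteoglycan of cartilage, was at 0.922, 17.8, 20.4 and 2.27 CPM in fibroblasts, from 5, 15, 113 and 24 UMIs. AS was at 19.3 (6.68 to 68.0) times the library labelled Healthy, MTZ-treated at 1.14 (0.665 to 2.11) times AS and MTZ-preventive at 0.127 (0.0642 to 0.261) of AS. Of the 15 AS UMIs 10 lay in 1 cell. The log2 ratio of MTZ-treated over AS, 0.19, had no settled direction: it was 1.43 without the cell with the most Acan in each library and -0.89 without cells of over 5 times the median UMIs. Acan in smooth muscle cells was at 11.6, 8.10, 10.9 and 4.31 CPM.

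Comp (ENSMUSG00000031849, chromosome 8, 70373548 to 70382066), the cartilage oligomeric matrix protein, was at 45.6, 243, 212 and 182 CPM in fibroblasts, with a UMI in 4.95%, 15.5%, 18.1% and 12.3% of the cells. All 3 libraries of mice on fatty food were above the library labelled Healthy, AS by 5.32 (4.40 to 6.44) times. MTZ-treated was at 0.876 (0.754 to 1.02) of AS and MTZ-preventive at 0.752 (0.650 to 0.873). In MTZ-preventive 1 cell held 181 of the 1925 UMIs. In smooth muscle cells Comp was at 14.8, 21.1, 22.4 and 14.7 CPM, with no ratio to AS whose limits left out 1. Chad (ENSMUSG00000039084, chromosome 11, 94565047 to 94569127), a leucine-rich protein of cartilage, had 2, 0, 0 and 4 UMIs in fibroblasts, 0, 0, 3 and 1 UMIs in smooth muscle cells and none in macrophages.

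Of the genes of mineralising bone, Ibsp had 0, 59, 5 and 1 UMIs in fibroblasts, or 70.2 CPM in AS. That is 127-fold higher than in the library labelled Healthy when 3 UMIs are set for its 0. With its 0 UMIs kept, the lower limit of the ratio was 99.9. All 59 AS UMIs lay in 2 cells, with 38 and 21, which are the third and the second highest Spp1 cells of the class. The cell with 38 Ibsp UMIs also had 174 Spp1, 20 Tnfrsf11b, 10 Acan and 3 Alpl UMIs. Smooth muscle cells had 4, 3, 5 and 8 Ibsp UMIs and macrophages none.

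Alpl (ENSMUSG00000028766, chromosome 4, 137741731 to 137796384) was at 11.6, 20.2, 5.42 and 33.2 CPM in fibroblasts, highest in MTZ-preventive. AS was at 1.74 (0.954 to 3.01) times the library labelled Healthy, MTZ-treated at 0.268 (0.143 to 0.518) of AS and MTZ-preventive at 1.64 (1.01 to 2.86) times AS. The 2 MTZ libraries thus lay on either side of AS. Alpl in smooth muscle cells was at 10.2, 27.5, 19.7 and 18.9 CPM, with AS at 2.71 (1.47 to 4.77) times the library labelled Healthy. That direction turned in cells with at most 1 marker of another of the 3 classes, where the log2 ratio was -1.08 in place of 1.44. Cells with adipocyte markers held 34 of the 89 Alpl UMIs of the AS library (38.2%), and adipocyte markers were raised in AS smooth muscle cells. Their part in the Alpl level was not tested.

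**Figure D4:**
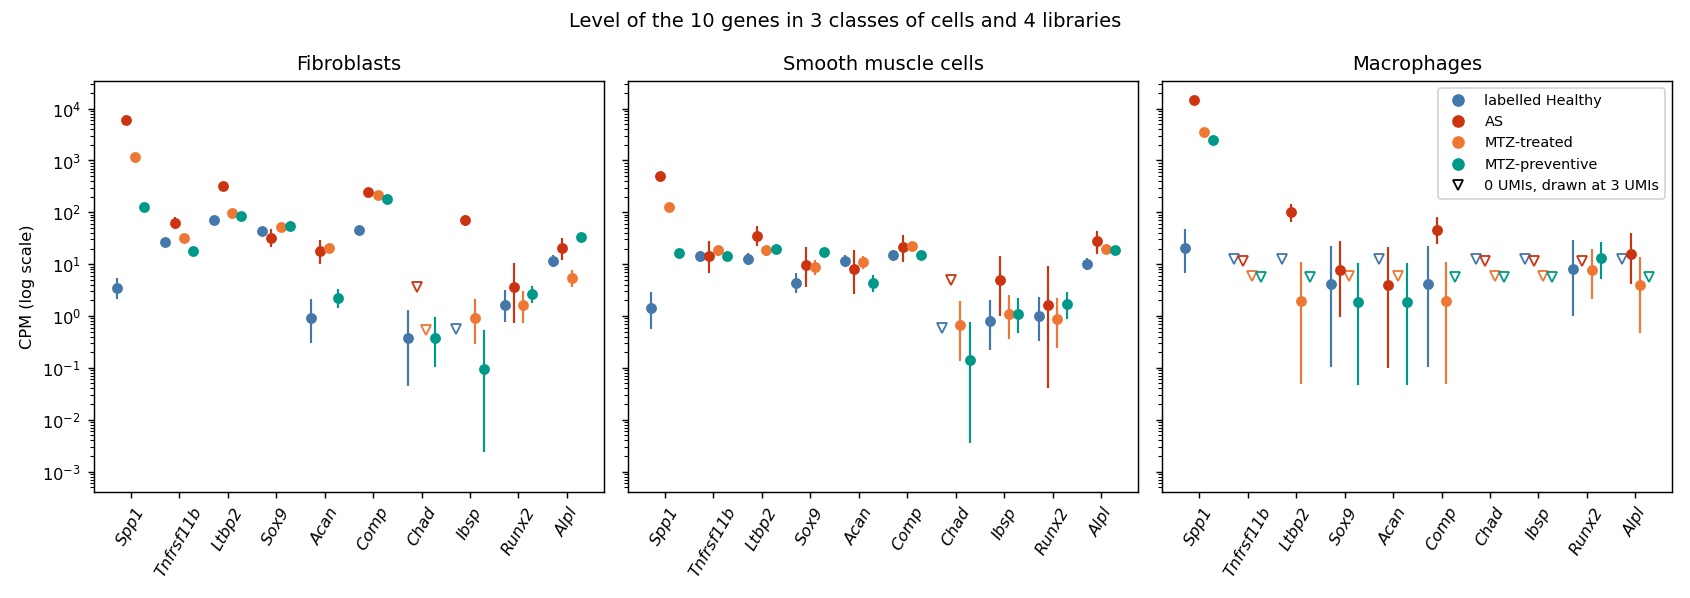
Level of the 10 genes in CPM on a log axis in fibroblasts, smooth muscle cells and macrophages, 1 point per library with exact 95% Poisson limits. Open triangles mark 0 UMIs, drawn at 3 UMIs. Spp1 separates AS from the other libraries in all 3 panels, and Ltbp2 and Tnfrsf11b are highest in AS in fibroblasts (317 and 63.0 CPM). Comp is at 243 CPM in AS fibroblasts and 212 CPM in MTZ-treated, with limits of the ratio that include 1.

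A gene is called past the fold here when the whole 95% interval of its ratio lies beyond 2-fold, among genes with at least 20 UMIs in the 2 libraries together. In fibroblasts 8 of the 10 genes had enough UMIs for AS against the library labelled Healthy, and 5 were called higher, which were Spp1, Ltbp2, Acan, Comp and Ibsp. Of all 11817 genes compared 1.25% were called higher, and the median log2 ratio was 2.27 over the 8 genes and -0.12 over all genes. For MTZ-treated against AS 3 of 8 were called lower, Spp1, Ltbp2 and Ibsp, beside 1.01% of all genes, with medians of -1.34 and -0.04. For MTZ-preventive against AS 5 of 9 were called lower, Spp1, Tnfrsf11b, Ltbp2, Acan and Ibsp, beside 0.768% of all genes, with medians of -1.85 and 0.01. The genes were chosen for such values, so nothing is read from these counts. The comparisons share the AS library.

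**Figure D5:**
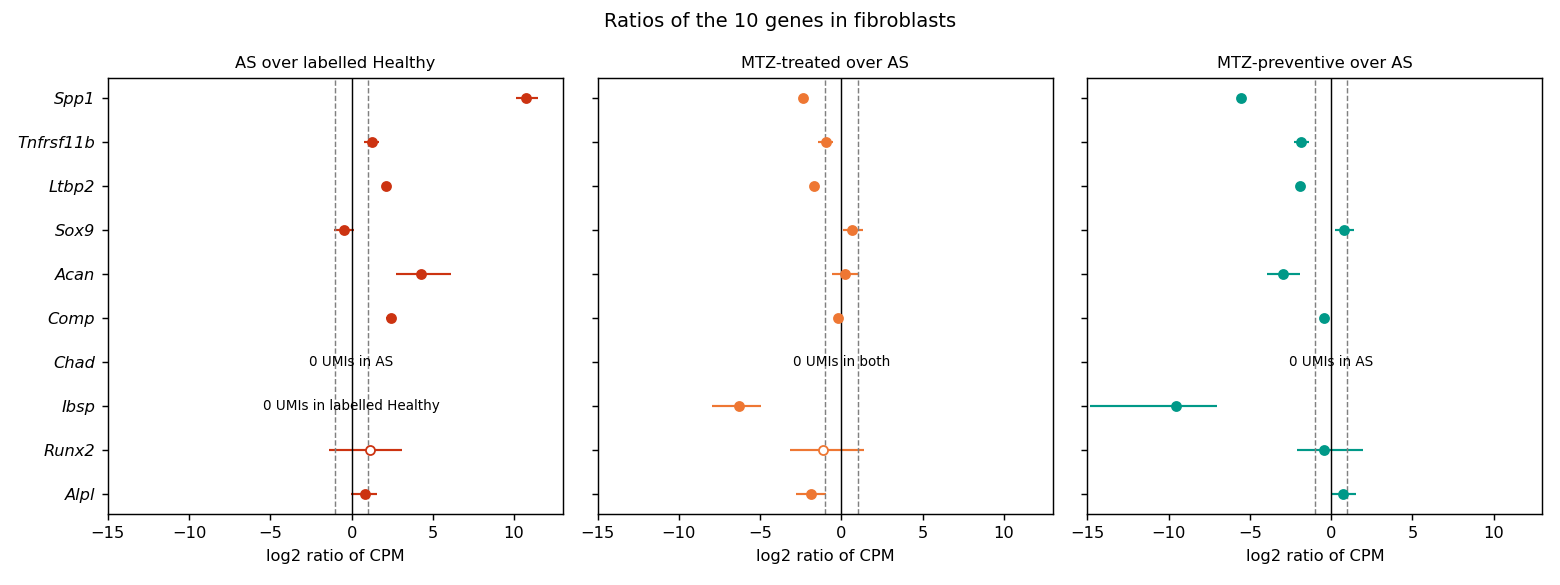
Log2 ratio of CPM of the 10 genes in fibroblasts for AS over the library labelled Healthy, MTZ-treated over AS and MTZ-preventive over AS, with exact 95% limits, dashed lines at 2-fold and open points for genes with under 20 UMIs in the 2 libraries together. Spp1 lies at 10.75, -2.34 and -5.56, and the limits of Sox9 for AS over the library labelled Healthy include 0.

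In smooth muscle cells Spp1 was the only one of 7 genes called in each comparison, beside 2.18% of all genes called higher in AS, 1.77% called lower in MTZ-treated and 0.927% called lower in MTZ-preventive. The medians of the 7 genes were 1.23, -0.27 and -0.58 on the log2 scale, against -0.12, 0.04 and 0.08 over all genes. In macrophages only Spp1 and Ltbp2 had enough UMIs, and both were called in each comparison. The shares of all genes were 6.48% called higher in AS, 2.46% called lower in MTZ-treated and 3.28% called lower in MTZ-preventive.

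The Ltbp2 UMIs of macrophages lay in cells with fibroblast markers. Macrophages had 0, 26, 1 and 0 Ltbp2 UMIs, and all 26 of AS were found in 19 of the 60 cells with at least 2 fibroblast markers, at 252 CPM. The other 68 AS macrophages had none. Spp1 went the other way, at 20628 CPM in the 68 cells with 0 or 1 fibroblast marker and 6246 CPM in the 60. The part of fibroblast RNA in the Ltbp2 count was not tested further. Comp had 1, 12, 1 and 0 UMIs in macrophages and Alpl 0, 4, 2 and 0.

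Other genes of the bone and cartilage programmes were read from fixed lists, by the same rule for a call. In fibroblasts 8 of 23 chondrocyte genes could be compared between AS and the library labelled Healthy. Col2a1 was called higher, at 126 CPM against 0 UMIs, and Fmod, the matrix proteoglycan fibromodulin, lower, at 13.1 against 181 CPM. Most Col2a1 UMIs of AS fibroblasts lay in the few Spp1-high cells described above, so the Col2a1 call rests mostly on few cells. The list median was 0.01 on the log2 scale against -0.12 for all genes. Of 17 genes compared from the list of 25 osteoblast and mineral genes, 1 was called higher and 4 lower, beside 1.25% of all genes called higher and 2.45% called lower. Enpp1, which makes the mineral inhibitor pyrophosphate, was at 35.7 against 8.67 CPM, while Sparc and Col1a1, matrix genes of bone and of fibroblasts, were at 4794 against 13995 CPM and 3386 against 9916 CPM. Col1a1 and Col1a2, which was also called lower, are among the fibroblast markers that define the class. The list median was -0.12, that of all genes.

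Against AS, MTZ-treated fibroblasts had 1 of 8 chondrocyte genes called higher, the cartilage cytokine Cytl1 at 261 against 72.5 CPM, beside 0.484% of all genes, and none of 15 osteoblast genes called. MTZ-preventive fibroblasts had Col2a1 called lower, at 4.36 against 126 CPM, and Enpp1 called lower, at 8.52 against 35.7 CPM, of 9 and 16 genes compared. The Col2a1 call rests mostly on the same few AS cells. Of all genes 0.768% were called lower there. No osteoclast gene and none of the 9 osteopontin receptor genes compared was called in fibroblasts in any comparison. Cd44 was at 86.8 CPM in AS and 47.4 CPM in the library labelled Healthy, a ratio of 1.83 (1.39 to 2.38). Of 12 genes of modulated smooth muscle cells 5 were called higher in AS fibroblasts and 1 lower, with a list median of 0.95, beside 1.25% and 2.45% of all genes. Among them Fn1, fibronectin, was at 3546 against 1433 CPM and the protease inhibitor Timp1 at 1207 against 173 CPM. Of the foam macrophage genes 4 of 11 were called higher in AS fibroblasts, beside the same 1.25%, with a list median of 0.49. They were Trem2 (20.2 against 2.40 CPM), Fabp4, Cd36 and Lgals3 (463 against 53.9 CPM). Against AS, 3 of 12 were called lower in MTZ-treated (Lpl, Mmp12 and Cd36, median -0.53) beside 1.01% of all genes, and 2 of 12 in MTZ-preventive (Trem2 and Mmp12, median -0.58) beside 0.768%. AS fibroblasts were also those with the most macrophage marker RNA, whose part in these values was not tested.

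In smooth muscle cells 5 of 15 osteoblast and mineral genes were called lower in AS than in the library labelled Healthy, and none higher, beside 1.7% of all genes called lower. They included Sparc at 1161 against 4941 CPM, Postn at 71.3 against 485 CPM and Sost, which encodes the bone inhibitor sclerostin, at 11.3 against 101 CPM. Col1a1 and Col1a2, which are fibroblast markers of the gate, were also called lower. Sost was called higher than in AS in both MTZ libraries, at 65.2 and 78.6 CPM, where 0.859% of all genes in MTZ-treated and 0.852% in MTZ-preventive were called higher. Of the 9 osteopontin receptors compared, the integrin genes Itga8 (104 against 452 CPM) and Itga9 (30.8 against 114 CPM) were called lower in AS, beside the same 1.7% of all genes. Itga8 was called higher in MTZ-preventive than in AS, at 369 CPM, beside 0.852% of all genes. None of 4 chondrocyte genes was called. Of 12 genes of modulated smooth muscle cells 5 were called higher in AS and 1 lower, beside 2.18% and 1.7% of all genes. The list median was 0.55 against -0.12 for all genes. The 5 included fibroblast markers of the gate, whose part was not tested. Against AS, 1 of 12 was called lower in MTZ-treated, beside 1.77% of all genes. In MTZ-preventive 2 were called lower and 1 higher, beside 0.927% and 0.852%. Of 12 foam macrophage genes 7 were called higher in these AS smooth muscle cells, beside 2.18% of all genes. Among them were Lpl at 361 against 33.5 CPM and Fabp4 at 5418 against 1746 CPM, in the same cells in which macrophage and adipocyte markers were raised.

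In macrophages 11 of 12 foam macrophage genes were called higher in AS than in the library labelled Healthy, beside 6.48% of all genes. The list median was 2.61 against 0.08 for all genes. Lgals3 was at 4351 against 796 CPM, Ctsb at 4091 against 874 CPM and Fabp4 at 2544 against 49.2 CPM. Against AS, 3 of 12 were called lower in MTZ-treated and 3 of 12 in MTZ-preventive, with list medians of -0.56 and -0.97. Fabp4 was among them in both MTZ libraries, at 532 and 379 CPM. Lgals3 and Ctsb were called in neither, with Ctsb at 2245 and 2084 CPM. Of all genes 2.46% were called lower in MTZ-treated and 3.28% in MTZ-preventive. Adipocyte and endothelial markers were also highest in AS macrophages, and their part in the Fabp4 levels was not tested. Of the osteoclast genes, Ctsk, the collagen-cleaving cathepsin K, was at 399 CPM in AS against 0 UMIs in the library labelled Healthy. No other of the 12 had enough UMIs there. Ctsk was at 35.0 and 11.2 CPM in the MTZ libraries and was called lower in both. Of 4 osteoclast genes compared between MTZ-treated and AS, Dcstamp was called higher, beside 49 of 4424 genes. The list median there was 0.56 against -0.03 for all genes. Fibroblast markers were raised in AS macrophages, and their part in the Ctsk levels was not tested. Of 6 osteoblast and mineral genes compared in the same AS macrophages, 4 were called higher, beside 6.48% of all genes, and 1, Slc20a1, lower, beside 120 of 3285 genes. Col1a1 was among the 4 higher, at 822 against 20.5 CPM. Col1a1 and Col1a2, which was also called, are fibroblast markers of the gate as well. Their calls are therefore part of the raised fibroblast markers.

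The genes whose levels over the 12 pools of class and library were most like those of Spp1, among 4737 genes with at least 50 CPM in a pool, were Tspo, AA467197, Htatip2, Dctn3 and Ptpmt1, with Pearson's r from 0.862 to 0.946 on log2(CPM + 10). For Tnfrsf11b they were Col12a1, Cops7a, Rdx, Abi3bp and Ildr2, with r from 0.930 to 0.975. Between Spp1 and the other 9 genes r ran from -0.40 for Chad to 0.35 for Ibsp. Between Tnfrsf11b and Sox9, Comp, Ltbp2 and Acan it was 0.77, 0.77, 0.74 and 0.72. The pools share libraries and differ in depth, so these values are a description only.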

How the data were processed

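Aortic cells of 6 pooled mice per group were sequenced with a 5' single-cell kit that marks each molecule with a UMI, and the authors counted them with Cell Ranger (5.0.0 in the matrix header) and STAR on mm10, per the labels. The deposited values are raw counts for called barcodes, 6908 to 23963 per library. The receptor contig files of the series were not used here.

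Barcodes were kept with over 200 genes, over 1000 UMIs, a log10 gene number over 0.7 times the log10 UMI number, under 10% mitochondrial and under 5% red blood cell UMIs. Doublets were ranked within each library against 2 simulated doublets per cell, on 2000 variable genes and 30 components, and 0.8% per 1000 cells were removed, 39 to 2130 cells. Cells were gated by 10 markers for each of 9 classes, with at least 3 markers and more than of any other class. The classes were rebuilt from the counts and are not the authors' annotation. UMIs were summed per class and library with at least 20 cells. Shares were also taken with each cell thinned to 1000 UMIs. The study's cell numbers were not compared.

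The 10 genes and the gene lists were chosen with earlier results of these data known. The other genes named were list genes past the fold, at most 4 per list by CPM, and the 5 genes most like Spp1 and Tnfrsf11b. Dcn, Clec3b, Lyz2, C1qb and Cd44 fall outside this rule and were named after their values were seen. Coordinates and promoters are those of RefSeq (GRCm38.p6), matched by symbol.

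Python 3.11.15 with scikit-learn 1.9.0, pandas 2.3.3, scipy 1.17.1, numpy 2.4.6 and matplotlib 3.10.9 was used, with R 4.3.3, edgeR 4.0.16 and DESeq2 1.42.0 for scaling factors. On data simulated for the fibroblasts of AS and of the library labelled Healthy, the true ratio lay within 96.2% of 11785 gene intervals, and 96.0% of genes set 4-fold higher were called. The simulated counts followed the Poisson model that the intervals assume, and genes with few expected UMIs were not set higher. Neither value therefore measures the intervals for genes whose UMIs lie in a few cells. The gate was right for 99.2% of 1600 simulated cells. These were drawn from pooled MTZ-preventive profiles of fibroblasts, smooth muscle cells, macrophages and endothelial cells that the same gate had selected. The share therefore does not measure the gate in the AS library. Among the 60 cells ranked highest as doublets, 75.0% were simulated doublets, of which 60 were made. The share that the removal rule itself would take out was not read.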

Additional observations from a re-analysis of the deposited data

Results flagged for a closer look

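Alpl was read in 2 classes between MTZ-preventive and AS with ratios on either side of 1. In fibroblasts the ratio was 1.64 (1.01 to 2.86), with 33.2 against 20.2 CPM. In macrophages it was 0, with 0 UMIs in MTZ-preventive against 4 UMIs in AS, fewer than the 20 UMIs required for a comparison, so that no direction is drawn from it. The difference between the classes was not tested, since each group is 1 library.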

How the results depend on the processing

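The counts of genes past the fold were recomputed under 12 settings for 3 classes and 3 comparisons. Of 108 such counts 89 were within 1.5 times the reported one. In fibroblasts, 5 genes lower in MTZ-preventive than in AS became 2 at 4-fold (Spp1 and Ibsp) and 3 without the cell with the most UMIs of the gene (Spp1, Ltbp2 and Ibsp). In smooth muscle cells, 1 gene became 2 under looser limits on cells in each comparison, with Ltbp2 added, and 0 at 4-fold for MTZ-treated against AS. In macrophages, 2 genes became 1 for all 3 comparisons under the stricter gate of 4 markers and a margin of 2. The same held under the gate on thinned counts and in cells with at most 1 marker of another of the 3 classes. Under looser limits they became 1 for AS and MTZ-preventive and 0 for MTZ-treated, where Spp1 lost its call with a log2 ratio of -0.97 against -2.07 as reported, and at 4-fold 1 for MTZ-treated. The cause was not tested. Of 527 ratios of single genes 425 stayed inside the reported limits and none of those called reversed. The log2 ratio of Spp1 ran from 8.33 to 12.32 in fibroblasts for AS against the library labelled Healthy, from -4.81 to -1.37 for MTZ-treated and from -7.68 to -3.29 for MTZ-preventive against AS. Sox9 in AS fibroblasts differed from the library labelled Healthy by -0.44 on the log2 scale as reported and by 0.22 under looser limits. Alpl in smooth muscle cells, 1.44 for AS over the library labelled Healthy, was -1.08 in cells with at most 1 marker of another of the 3 classes. The settings without the highest cell and with at most 1 marker of another of the 3 classes were chosen after seeing the data. So was the setting without cells of over 5 times the median UMIs. The mean over cells has no interval and gives no count past the fold. No paired analysis was possible because each group has 1 library, and for the same reason no replicate could be left out.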

Other observations

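Schwann cells carried Spp1 outside the 3 classes described. In the library labelled Healthy, 208 cells gated by Schwann cell markers held 174 of the 242 Spp1 UMIs of the library, or 71.9%, at 210 (180 to 244) CPM. Spp1 was found in 30 of these cells, 14.4% (9.95 to 19.9). In MTZ-treated 28 such cells were at 473 (297 to 716) CPM and in MTZ-preventive 104 such cells at 144 (93.9 to 211) CPM, while AS had 3 such cells with no UMI. In the AS library, cells that met no gate held 14.1% of the Spp1 UMIs, at 2848 CPM over 406 cells, and 93 neutrophils were at 1106 (954 to 1276) CPM, of which 1 cell held 102 of 188 UMIs.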
